A study of Mus musculus with 12 samples.

Results

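The genes described here are complement components and markers of activated microglia, measured by RNA sequencing in the cortex of mice. They were chosen by symbol, with earlier results of these data known, as C1qa, C1qb, C1qc, C3, C4b, Itgam, Trem2, Tyrobp, Cd68 and Tlr2. Of these 10 genes, 9 were found among the 17202 genes of the deposited table, and C3 was not analysed here. All 9 passed the filter on low values.

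The study asked whether co-treatment with curcumin and verapamil alters gene expression in a mouse model of Williams–Beuren syndrome. The 4 groups held 3 mice each. They combine the genotypes WT and CD with the treatments VEH and VERCUR. WT mice have the intact chromosomes, and CD mice (complete deletion) are heterozygous for a deletion that runs from Gtf2i to Fkbp6. VERCUR mice drank curcumin, a phenol of turmeric, together with verapamil, a blocker of calcium channels. VEH mice received vehicle in the study's methods and are called untreated in the labels. All mice were of the C57Bl6 strain, male by the study's methods, and 16 weeks old at dissection by the labels. By the labels the drinking water supplied curcumin at 60 mg/kg/day and verapamil at 10 mg/kg/day for 1 month from 8 weeks of age, and the study's methods give a lower dose of verapamil and an earlier end. The CD line was crossed with a mouse that expresses a yellow fluorescent protein in pyramidal neurons from the Thy1 promoter. The methods give the frontal cortex as the tissue, which the labels call cortex.

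Microglia are the resident macrophages of the brain, and they make most of the C1q found there. C1q starts the classical complement cascade, C4b carries it on, and fragments of C3 left on a synapse or particle are bound by the receptor whose alpha chain is Itgam, so that the microglia can engulf it. Trem2 signals through its adaptor Tyrobp, Tlr2 senses bacterial lipoproteins, and Cd68 is a lysosomal protein that is raised in phagocytic microglia. In bulk tissue, fewer cells of a type and less RNA per cell cannot be told apart.

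The promoters of the members are shown because several of these genes varied together from mouse to mouse while others did not. RefSeq entries on GRCm38.p6 were matched for 6 of the 9 members, and C1qa, C4b and Tyrobp had no entry. The 150 bases before the start of transcription are given 5′ to 3′ for C1qb, chr4:136886201-136886350 (minus strand), and Trem2, chr17:48346251-48346400 (plus strand), which varied together. They are also given for Itgam, chr7:128062490-128062639 (plus strand), which did not vary with them, and for Cd68, chr11:69666171-69666320 (minus strand), which had the largest difference between genotypes. The RefSeq starts of Tlr2 and C1qc lie inside the gene as GENCODE annotates it, so their windows lie partly in annotated transcript and are not shown. Capitals mark the PU box GAGGAA, a core letter pattern of sites bound by the macrophage factor PU.1, and the AP-1 pattern TGANTCA, each on either strand.
C1qb: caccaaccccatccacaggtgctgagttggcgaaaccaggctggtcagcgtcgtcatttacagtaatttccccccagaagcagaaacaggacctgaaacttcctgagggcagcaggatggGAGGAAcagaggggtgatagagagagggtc
Trem2: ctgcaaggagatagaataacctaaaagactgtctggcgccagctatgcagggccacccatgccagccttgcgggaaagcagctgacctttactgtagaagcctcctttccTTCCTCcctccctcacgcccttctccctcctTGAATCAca
Itgam: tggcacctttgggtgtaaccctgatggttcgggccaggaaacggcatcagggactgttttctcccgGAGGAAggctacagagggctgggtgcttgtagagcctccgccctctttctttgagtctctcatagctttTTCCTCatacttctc
Cd68: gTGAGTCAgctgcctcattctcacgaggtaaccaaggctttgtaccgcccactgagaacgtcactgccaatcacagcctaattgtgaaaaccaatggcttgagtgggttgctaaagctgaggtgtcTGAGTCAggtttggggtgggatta
Over the 250 bases before the start, GAGGAA or its reverse complement TTCCTC was found in 5 of the 6 members, against 23.3% of 32851 promoters of the same length. It lay 30 to 25 bases before the start of C1qb and 40 to 35 bases before that of Trem2, on the opposite strand. Itgam held it in 2 places, the nearer one 15 to 10 bases before the start, and C1qc and Cd68 held it more than 150 bases before the start. TGANTCA, which reads the same on both strands, was found in Trem2 and in Cd68, against 6.75% of all promoters. In Cd68 it was found at 2 places, the nearer one 24 to 18 bases before the start. No match was found in the window of Tlr2, which says only that these letters are not there.

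The reads recovered from the deposited normalized values numbered 40287647 to 56480883 per mouse, over the 17202 genes listed. The 19 measured genes of the deleted interval were at a median of 0.468 to 0.530 of the VEH-WT level in the 6 CD mice and at 0.959 to 1.04 in the 6 WT mice, so every mouse matched its labelled genotype. Correlations over genes between mice of a group were 0.986 to 0.994. The summed markers of cortical excitatory neurons, led by Slc17a7, the vesicular glutamate transporter, lay at 0.932 to 1.09 of the VEH-WT mean in all mice. The summed markers of striatal neurons, led by Ppp1r1b, ranged from 0.409 to 1.66. VERCUR-WT replicates 1 and 2 summed to 10387 and 10743 normalized counts, and VERCUR-CD replicates 2 and 3 to 11149.5 and 10973. All lay below every VEH mouse, the lowest being VEH-CD replicate 2 at 18281. VERCUR-WT replicate 3, at 42107, and VERCUR-CD replicate 1, at 30094, did not. Over both genotypes, the co-treatment difference of the 8 markers had a median of -0.55 on the log2 scale (smallest adjusted p = 0.9998, limma). Its part in the levels of the members was not tested. VERCUR-CD replicate 2 stood apart, with the lowest sample weight in limma, 0.282 when estimated gene by gene, and several values are given without it as well.

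Per kb of exon, C1qa and C1qb were the most abundant members, with medians over the 12 mice of 2245 and 2059.8 normalized counts per kb and overlapping ranges. C1qc followed at 1095, Tyrobp at 809 and Cd68 at 321. Itgam, at 208, overlapped the range of Cd68, while Trem2 at 122 and C4b at 108 overlapped each other. Tlr2 was the least abundant, at 18.2 normalized counts per kb. Its lowest value, 33.5 normalized counts, was in VEH-WT replicate 2.

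The 3 C1q genes lie side by side on the minus strand of chromosome 4, as annotated in GENCODE M21 on GRCm38, with C1qb at chr4:136880129-136886187, C1qc at chr4:136889804-136893065 and C1qa at chr4:136895917-136898803. They encode the A, B and C chains of C1q. In VEH-WT mice, C1qa was at 2325, 2023 and 2331 normalized counts, and in VEH-CD mice at 2409.7, 1959 and 2440.1. In VERCUR-WT mice it was at 2172, 2555 and 2373.5, and in VERCUR-CD mice at 2501, 1925 and 2338. The groups overlapped throughout, and replicate 2 was the lowest mouse in every group but VERCUR-WT.

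C1qb was at 2134, 1914 and 2221 normalized counts in VEH-WT and at 2655, 1942 and 2350.2 in VEH-CD. It was at 2202, 2325 and 2261 in VERCUR-WT and at 2582, 1889 and 2362 in VERCUR-CD. The highest mouse was VEH-CD replicate 1 and the lowest VERCUR-CD replicate 2, so that the CD mice spanned the range of the WT mice. For C1qc, the values were 2090.4, 1807 and 2161 in VEH-WT and 2329, 1799.6 and 2208 in VEH-CD. They were 2071, 2298 and 2099 in VERCUR-WT and 2246, 1882 and 2129.7 in VERCUR-CD. Again, no group was separate from another.

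VEH-CD mice differed from VEH-WT mice by 0.02 ± 0.11 (log2 fold change ± SE, 3 against 3 mice) for C1qa, 0.14 ± 0.12 for C1qb and 0.06 ± 0.10 for C1qc. The 95% confidence intervals of the fold ran from 0.859 to 1.20 for C1qa, from 0.916 to 1.32 for C1qb and from 0.891 to 1.22 for C1qc. VERCUR-CD against VEH-CD gave -0.01 ± 0.11, -0.02 ± 0.12 and -0.01 ± 0.10 for the same genes, with fold intervals of 0.838 to 1.17, 0.818 to 1.18 and 0.847 to 1.16. Without VERCUR-CD replicate 2, the lowest of its group in all 3 genes, the co-treatment differences were 0.10 ± 0.10, 0.10 ± 0.11 and 0.06 ± 0.11, and the interval of C1qb reached 1.27.

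C4b, the fourth complement component, lies on chromosome 17 at chr17:34728380-34743882, minus strand, and shares 15.2% of its 100-base words with its paralog C4a, so reads may have been split between them. It was at 566, 584 and 681 normalized counts in VEH-WT and at 752, 633 and 594 in VEH-CD. In the treated mice it was at 643, 505 and 683 for VERCUR-WT and at 758, 525 and 592 for VERCUR-CD. The 2 highest mice were CD mice, replicate 1 of each treatment, but the groups overlapped. The VEH-CD to VEH-WT difference was 0.11 ± 0.15 on the log2 scale (fold interval 0.861 to 1.35).

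Itgam, the alpha chain of complement receptor 3 (CD11b), lies on chromosome 7 at chr7:128062640-128118491, plus strand. The annotation has the protein-coding model Gm49368 over it, with which it shares 64.3% of its 100-base words, so its counts depend on how such reads were treated. Itgam was at 1036, 886 and 1096 normalized counts in VEH-WT and at 1171, 1040.2 and 1025 in VEH-CD. It was at 1134, 1023 and 936 in VERCUR-WT and at 1054, 1415 and 1255 in VERCUR-CD. The highest value was that of VERCUR-CD replicate 2, the mouse in which the other 8 members were the lowest of their group.

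VERCUR-CD exceeded VEH-WT by 0.30 ± 0.12 on the log2 scale in Itgam (unadjusted p = 0.0243, limma; p adjusted by Benjamini and Hochberg = 0.499), and the groups overlapped. Without VERCUR-CD replicate 2 the difference was 0.20 ± 0.12 (unadjusted p = 0.110, limma). Against VERCUR-WT, VERCUR-CD was higher by 0.26 ± 0.12, and without that mouse by 0.16 ± 0.12. With 1 mouse left out, the difference ran from 0.20 to 0.41 against VEH-WT and from 0.16 to 0.37 against VERCUR-WT. In the untreated mice, the genotypes differed by 0.10 ± 0.12 in Itgam (fold interval 0.902 to 1.28).

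Tlr2, on the minus strand at chr3:83836272-83841767, was at 45.95, 33.5 and 48.7 normalized counts in VEH-WT and at 62.8, 47.7 and 50.3 in VEH-CD. It was at 58.2, 63.0 and 51.8 in VERCUR-WT and at 61.95, 59.35 and 61.6 in VERCUR-CD. Every co-treated mouse was above every VEH-WT mouse, while VEH-CD overlapped all other groups. VERCUR-WT exceeded VEH-WT by 0.44 ± 0.18 on the log2 scale (unadjusted p = 0.0311, adjusted p = 0.944, limma), and VERCUR-CD exceeded VEH-WT by 0.52 ± 0.18 (unadjusted p = 0.0130, adjusted p = 0.452). Without VEH-WT replicate 2, the lowest mouse, these differences were 0.28 ± 0.18 and 0.36 ± 0.18, and without VERCUR-CD replicate 2 the latter was 0.54 ± 0.21.

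Trem2, a lipid-sensing receptor of microglia, lies at chr17:48346401-48354147, and Tyrobp, its signaling adaptor, at chr7:30413760-30417585, both on the plus strand. Trem2 was at 523, 476 and 582 normalized counts in VEH-WT and at 684, 553 and 629 in VEH-CD. It was at 539, 726 and 659.8 in VERCUR-WT and at 674, 505 and 622 in VERCUR-CD. All groups overlapped, and VEH-WT had the lowest mouse and the lowest mean. Trem2 differed from VEH-WT by 0.24 ± 0.14 on the log2 scale in VEH-CD, by 0.28 ± 0.14 in VERCUR-WT and by 0.18 ± 0.14 in VERCUR-CD. With 1 mouse left out these ran from 0.17 to 0.32, from 0.18 to 0.40 and from 0.09 to 0.30. The last was 0.30 ± 0.13 without VERCUR-CD replicate 2 (unadjusted p = 0.0454, limma), 0.09 ± 0.15 without VERCUR-CD replicate 1 and 0.11 ± 0.15 without VEH-WT replicate 2.

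Tyrobp was at 482, 421 and 534 normalized counts in VEH-WT and at 592, 436 and 570.2 in VEH-CD. It was at 463, 569 and 569 in VERCUR-WT and at 592, 438 and 546 in VERCUR-CD. Its 3 lowest mice were replicate 2 of the VERCUR-CD, VEH-CD and VEH-WT groups, as for the C1q genes. The differences from VEH-WT were 0.15 ± 0.15 in VEH-CD, 0.16 ± 0.15 in VERCUR-WT and 0.13 ± 0.15 in VERCUR-CD on the log2 scale. With 1 mouse left out they ran from 0.06 to 0.28, from 0.07 to 0.25 and from 0.04 to 0.25.

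Cd68, on the minus strand at chr11:69664213-69666153, had the largest difference between genotypes among the members. It was at 295, 327 and 386 normalized counts in VEH-WT and at 508, 366 and 422 in VEH-CD. It was at 336, 367 and 429.5 in VERCUR-WT and at 481, 424 and 474 in VERCUR-CD. The 6 CD mice ran from 366 to 508 with a median of 449, and the 6 WT mice from 295 to 429.5 with a median of 351, so the genotypes overlapped. VERCUR-CD did not overlap VEH-WT.

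The VEH-CD to VEH-WT difference of Cd68 was 0.36 ± 0.14 on the log2 scale (fold 1.28, interval 1.04 to 1.58, unadjusted p = 0.0227, adjusted p = 0.331, limma). It was 0.24 ± 0.14 without VEH-CD replicate 1, 0.27 ± 0.15 without VEH-WT replicate 1 and 0.34 ± 0.16 without VEH-WT replicate 2, each with an unadjusted p over 0.05, and at most 0.47 without another mouse. VERCUR-CD was above VEH-WT by 0.46 ± 0.14 (fold 1.37, interval 1.12 to 1.69, unadjusted p = 0.00585, adjusted p = 0.396, limma), and by 0.52 ± 0.15 without VERCUR-CD replicate 2. Over both treatments, CD exceeded WT by 0.32 ± 0.10 in 6 against 6 mice (unadjusted p = 0.00586, adjusted p = 0.277, limma). The co-treatment changed the CD level by 0.10 ± 0.14, with a fold interval of 0.870 to 1.32. Cd68 thus missed the call after adjustment in each comparison, and its values with other weights are given in the closing section.

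**Figure D1:**
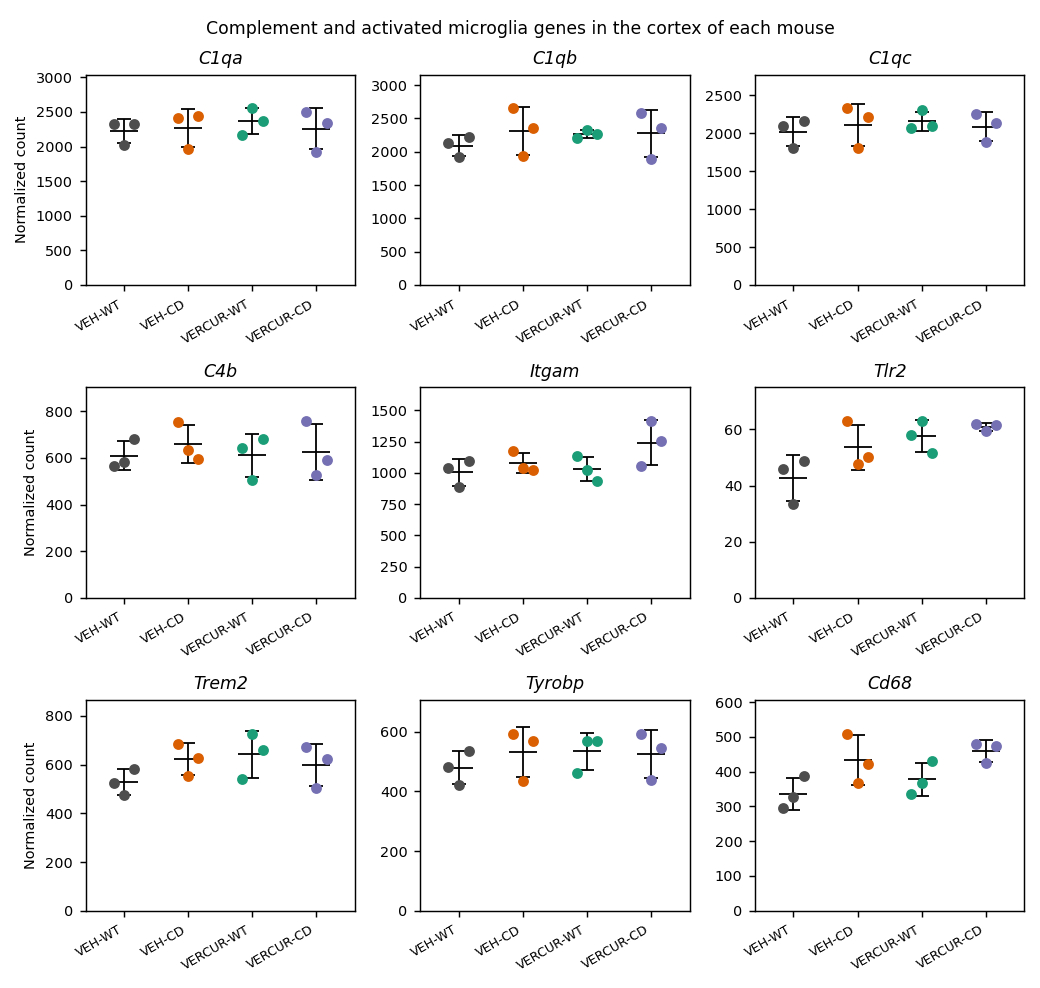
Normalized counts (vertical axes, from 0) of the 9 members in each of the 12 mice, with points for mice and horizontal bars and whiskers for the mean and SD of each group (n = 3). The VERCUR-CD mice of Cd68, from 424 to 481 normalized counts, lie above the VEH-WT mice, from 295 to 386, while the C1q genes overlap in all groups.

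Between the genotypes without treatment, no member was called by limma (adjusted p under 0.05 with a fold change of more than 25% in either direction), where 0.257% of the 17111 genes tested were. All 9 log2 fold changes were above 0, as were 49.3% of all genes, and their median was 0.14 (range 0.02 to 0.36) against -0.00 for all genes. Without VEH-WT replicate 2, 7 were above 0 with a median of 0.08, and without VEH-CD replicate 1, 7 with a median of 0.04. Cd68 alone had an unadjusted p under 0.05 in the higher direction, where 5.07% of all genes did. In no member were the groups separate, against 9.28% of genes with every VEH-CD mouse above every VEH-WT mouse. The members are not independent of each other, since most of them vary together as described below.

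VERCUR-CD against VEH-CD, the comparison that asks what the co-treatment did in CD mice, called no member and no gene of the table (0.0%). The members had a median of -0.01 on the log2 scale, from -0.09 for C4b to 0.19 for Itgam, with 3 above 0 and 6 below (50.8% of all genes were above). Most of these signs rest on single mice, since all 9 were above 0 without VERCUR-CD replicate 2 (median 0.10) and without VEH-CD replicate 1 (median 0.06), and 2 without VEH-CD replicate 2 (median -0.11). Itgam and Tlr2 stayed above 0 whichever mouse was left out, from 0.09 to 0.31 and from 0.11 to 0.31. No member had an unadjusted p under 0.05, against 3.54% of all genes. Without VERCUR-CD replicate 1, Itgam alone did (unadjusted p = 0.0186, limma), as did 2320 of the 17111 genes tested. The fold intervals of the 9 members reached from 0.751, the lower bound of C4b, to 1.50, the upper bound of Tlr2. VERCUR-WT against VEH-WT also called no gene (0.0%), and Tlr2 was the only member with an unadjusted p under 0.05 in the higher direction (1.97% of all genes) and with separate groups (4.48%).

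VERCUR-CD against VEH-WT called 0.199% of all genes and no member. An unadjusted p under 0.05 was found for Cd68, Tlr2 and Itgam, all higher, where 3.92% of all genes were higher by that rule. Cd68 and Tlr2 were the 2 members with every VERCUR-CD mouse above every VEH-WT mouse, as were 6.56% of all genes. The members' median was 0.13 on the log2 scale and all 9 were above 0 (50.5% of all genes), against 6 without VEH-WT replicate 2 (median 0.05) or VERCUR-CD replicate 1 (median 0.04), and without VERCUR-CD replicate 2 all 9 were (median 0.24). Without that last mouse, 4 members had an unadjusted p under 0.05, all higher, among them C1qb (0.24, unadjusted p = 0.0473, limma). In either direction, 1952 of the 17111 genes tested then did. These comparisons share the VEH-WT mice, so their values are set side by side only.

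VERCUR-CD against VERCUR-WT called 0.146% of all genes and no member, with Itgam the only one at an unadjusted p under 0.05 in the higher direction (2.19% of all genes). The genotypes over both treatments called 0.321% of all genes and no member, with Cd68 and Itgam at an unadjusted p under 0.05, higher (4.78% of all genes). Itgam, at 0.18 ± 0.08, was at 0.13 ± 0.08 without VERCUR-CD replicate 2 and at 0.14 ± 0.08 without VEH-WT replicate 2, with unadjusted p values of 0.111 and 0.119 (limma). It was at most 0.24 without another mouse. The co-treatment over both genotypes called no gene (0.0%), and Tlr2, higher by 0.31 ± 0.13 on the log2 scale, was the only member at an unadjusted p under 0.05 (1.45% of all genes in that direction), with 0.23 to 0.37 when 1 mouse was left out. For the interaction, whether the difference between genotypes changed with co-treatment, no gene had an adjusted p under 0.05 (0.0%) and no member an unadjusted p under 0.05 (6.05% of all genes). The largest interaction among the members was that of Trem2, at -0.33 ± 0.19 on the log2 scale (unadjusted p = 0.108, limma), and at -0.21 ± 0.18 without VERCUR-CD replicate 2. At the other end it was -0.45 without VERCUR-WT replicate 1 (unadjusted p = 0.0306, limma), where 1027 of the 17111 genes tested were under 0.05.

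**Figure D2:**
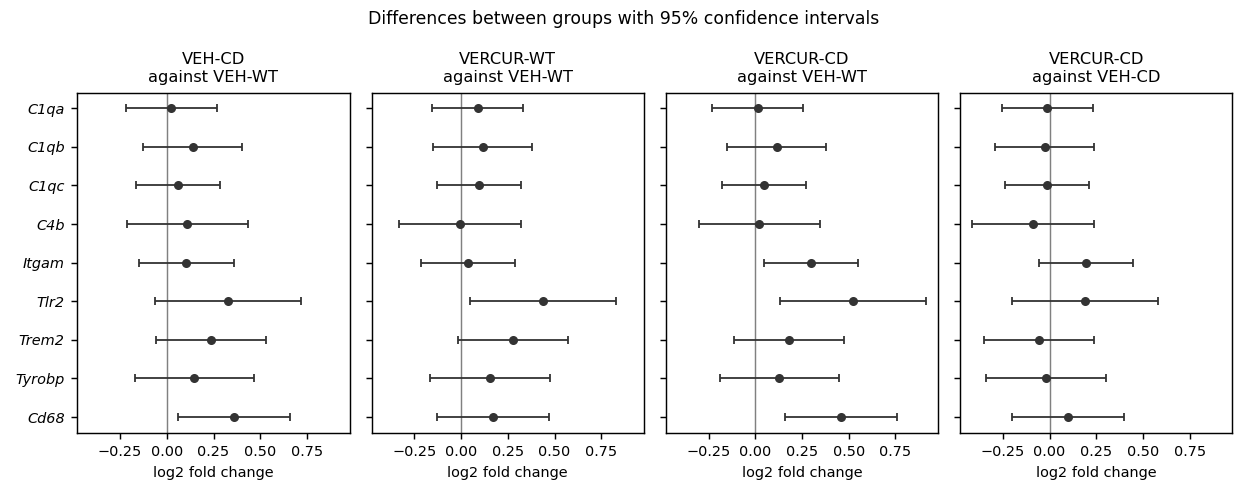
Log2 fold changes (horizontal axes) of the 9 members in 4 comparisons of 3 against 3 mice, with points for the limma estimate and bars for its 95% confidence interval. The intervals of VERCUR-CD against VEH-CD all include 0, and those of Cd68, Tlr2 and Itgam in VERCUR-CD against VEH-WT do not, before any adjustment for the number of genes.

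The members differed in how closely they varied together over the 12 mice. The log2 values of the 3 C1q genes had pairwise Pearson r of 0.872 to 0.939, and those of the C1q genes with Trem2 and Tyrobp 0.831 to 0.924. After the group means were removed these were 0.918 to 0.943 and 0.844 to 0.959. Itgam had an r of -0.22 to 0.0622 with these 5 genes, C4b of 0.268 to 0.566, Cd68 of 0.340 to 0.653 and Tlr2 of 0.437 to 0.659. With the group means removed, the r with these genes was -0.25 to 0.0627 for Itgam and 0.306 to 0.573 for C4b. It was higher for Cd68, at 0.560 to 0.758, and for Tlr2, at 0.563 to 0.772. The 12 values of each gene share their library and scaling factor with those of every other gene, so these are descriptions.

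The chains of C1q kept nearly constant proportions. Relative to the mean of the 3 per kb, C1qa stood at 1.17 to 1.27 in the 12 mice, C1qb at 1.11 to 1.23 and C1qc at 0.587 to 0.641. These proportions had a coefficient of variation of 2.26% to 2.98%, against 8.55% to 10.9% for the normalized counts. In VERCUR-CD, 8 of the 9 members had their lowest value in replicate 2, and in VEH-WT all 9 had their highest value in replicate 3.

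Markers of microglia outside the members, such as P2ry12, Tmem119 and Cx3cr1, were summarized as the mean log2 value of 16 genes. This mean lay between -0.16 and 0.0985 in VEH-WT, relative to the group's own mean, between -0.01 and 0.197 in VEH-CD, between 0.0424 and 0.185 in VERCUR-WT and between 0.123 and 0.175 in VERCUR-CD. The summed level of the 16 markers was 0.899 to 1.07 of the VEH-WT mean in VEH-WT, 0.976 to 1.12 in VEH-CD, 1.01 to 1.10 in VERCUR-WT and 1.08 to 1.14 in VERCUR-CD, so that only VERCUR-CD did not overlap VEH-WT. Tlr2 followed the marker mean with an r of 0.946 over the 12 mice and Itgam with 0.727, whereas C1qa had 0.408, Cd68 0.467 and C4b 0.0430. Csf1r, the most abundant marker and a receptor that microglia need to survive, differed by -0.02 ± 0.07 between VEH-CD and VEH-WT.

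Set against the marker mean in the same mouse, Cd68 was higher in VEH-CD than in VEH-WT by 0.28 and higher in VERCUR-CD than in VERCUR-WT by 0.27 on the log2 scale. Tlr2 relative to the marker mean differed by 0.25 and 0.06 in the same comparisons, Trem2 by 0.16 and -0.12, and C1qa by -0.06 and -0.10. Relative Cd68 lay between 0.14 and 0.41 in the 6 CD mice and between -0.24 and 0.32 in the 6 WT mice, so the genotypes overlapped here too. At an unadjusted p under 0.05, 7 of the 16 markers were higher (3.92% of all genes) and 1 lower in VERCUR-CD against VEH-WT. In VEH-CD against VEH-WT, 2 were higher (5.07%) and 1 lower (6.73%). Between the genotypes over both treatments, 4 were higher (4.78%) and 1 lower. In either direction, 1485 and 1649 of the 17111 genes tested were under that p in the first and last of these comparisons. Olfml3 was called between the genotypes over both treatments, lower in CD mice by 0.42 on the log2 scale (adjusted p = 0.0352, limma), and it was singled out after its values were seen. It was at 634 to 756 normalized counts in CD mice and 720.5 to 1037 in WT mice.

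The C1q genes, Trem2 and Tyrobp followed another measure more closely than the mean of the microglia markers. The mean log2 value of 75 cytosolic ribosomal protein genes, a set chosen after the data were seen, had an r of 0.783 to 0.909 with these 5 genes over the 12 mice, against 0.408 to 0.643 for the microglia marker mean. Single markers differed among themselves. Their r with C1qa ran from -0.33 for Ptprc to 0.841 for Itgb5, where the ribosomal mean had 0.845. With the ribosomal mean, Cd68 had an r of 0.605, C4b of 0.482, Tlr2 of 0.417 and Itgam of -0.15. The ribosomal mean was at -0.06 in replicate 2 of VEH-WT, -0.08 in that of VEH-CD and -0.10 in that of VERCUR-CD, relative to the VEH-WT mean, and was highest in VEH-CD replicate 1, at 0.208. Its part in the levels of the members was not tested.

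**Figure D3:**
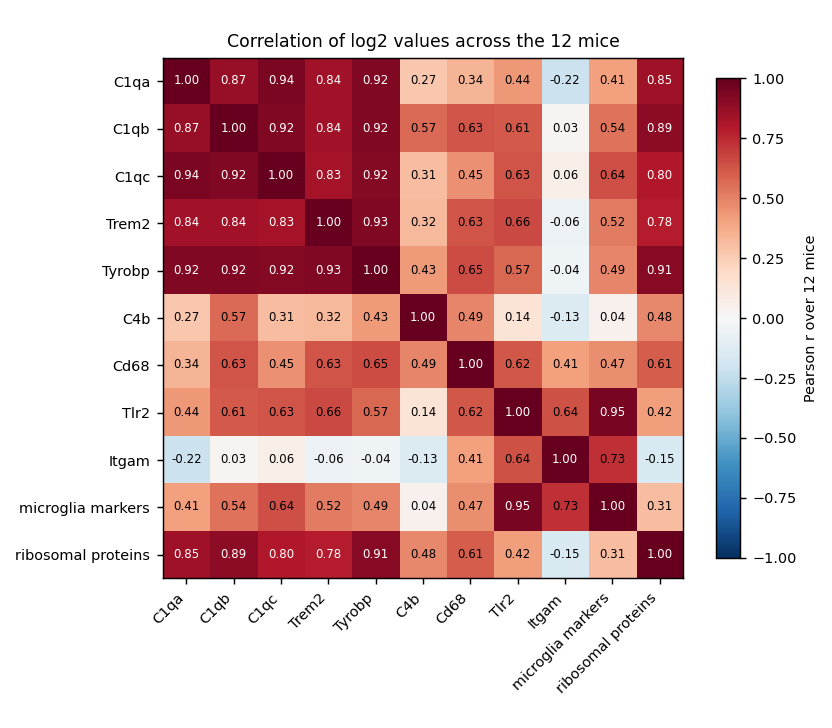
Pearson r of log2 values over the 12 mice for each pair of members and for the means of 16 microglia markers and 75 ribosomal protein genes, on a color scale from -1 to 1. The C1q genes, Trem2 and Tyrobp form a block with r of at least 0.831, outside which lie Itgam and C4b, and the ribosomal mean has r of 0.783 or more with each gene of the block.

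**Figure D4:**
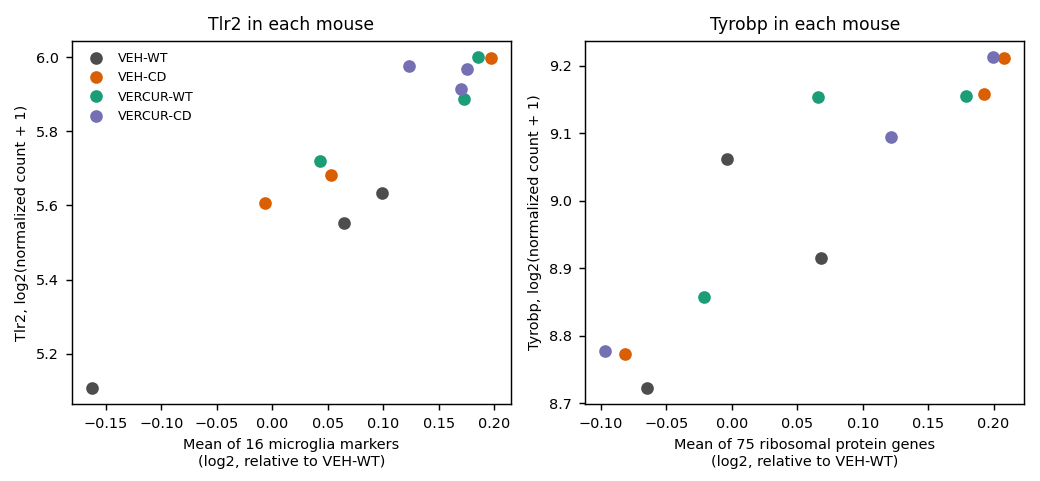
Log2(normalized count + 1) of Tlr2 against the mean of the microglia markers, and of Tyrobp against the mean of the ribosomal protein genes (both means as log2 values relative to VEH-WT), with 1 point per mouse colored by group. Tlr2 rises with the marker mean (r = 0.946) and Tyrobp with the ribosomal mean (r = 0.909), with mice of all groups along both relations.

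The genes most like each member were searched among the 17111 tested, by Pearson r over the 12 mice, with the members themselves left out. Those of C1qa were the neurotensin receptor Ntsr2 (r = 0.961), Bcan and Ddt, and those of C1qb were the ribosomal protein gene Rpl36al (0.933), Paqr6 and Ndufa13, a subunit of mitochondrial complex I. C1qc was most like Fcgrt (0.947), the neonatal Fc receptor, Ddt and C030006K11Rik. Among the members, C1qa had an r of 0.939 with C1qc, above the 0.929 of C030006K11Rik. The mean of the 3 C1q genes was closest to Ddt (0.948), Ndufa13 (0.948) and Clu (0.938), which encodes clusterin, an inhibitor of the terminal complement complex. Trem2 was most like Pet100 (0.952), Metap2 and Etfb, and Tyrobp most like Clu (0.965) and the ribosomal protein genes Rpl18 and Rps26. Trem2 and Tyrobp had an r of 0.926 with each other, above the 0.919 of Etfb with Trem2.

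Tlr2 was the only member whose closest gene was a microglia marker, Cx3cr1, the fractalkine receptor (r = 0.929), followed by A730020M07Rik and Mgst1. Cd68 was closest to Nqo1 (0.957), a quinone reductase, Pex10 and Kctd14. Itgam was closest to Lhfpl3 (0.943), U2surp and Gsap, and C4b to Doc2b (0.899), Rcn1 and Ano2. With 12 mice high correlations are common, and 2.5% of all genes tested had an r above 0.792 with C1qa and above 0.657 with Tlr2.

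Of 168 other listed genes of these pathways, 136 were tested, and limma called none of them in any of the 8 comparisons. Between VEH-CD and VEH-WT, 4 had an unadjusted p under 0.05 in the higher and 6 in the lower direction, against 5.07% and 6.73% of all genes, with a median log2 fold change of -0.02. VERCUR-CD against VEH-CD gave 6 higher and 2 lower, against 2.09% and 1.44% of all genes, with a median of 0.05. The 2 lower genes were Card9, at -0.61 ± 0.19 (unadjusted p = 0.00623, adjusted p = 0.867, limma), and C1s1, at -0.62 ± 0.28. Complement proteases and components had a median of -0.04 over 9 genes in VEH-CD against VEH-WT, complement inhibitors -0.02 over 17 and complement receptors -0.07 over 9.

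Among receptors, Cd93, which was first described as a C1q receptor, had a log2 fold change of -0.41 ± 0.14 in VEH-CD against VEH-WT (unadjusted p = 0.0115, adjusted p = 0.276, limma), and Lrp1 of -0.16 ± 0.06. C5ar1, the receptor of the C5a fragment, was at -0.30 ± 0.24. Of the inhibitors, Cd59a was at 0.34 ± 0.19, Csmd1 at -0.28 ± 0.15 and Cd46 at 0.26 ± 0.15. C1s1, a protease of the C1 complex, was at 0.19 ± 0.28, Cfp, or properdin, at -0.23 ± 0.36 and C7 at -0.20 ± 0.43.

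In the Toll-like receptor pathway, Tlr1, the partner of Tlr2, was at 13.45, 21.9 and 20.9 normalized counts in VEH-WT and at 36.6, 25.6 and 35.9 in VEH-CD. All VEH-CD mice were above the VEH-WT mice, with a log2 fold change of 0.78 ± 0.24 (unadjusted p = 0.00677, adjusted p = 0.235, limma). Traf6, a signaling adaptor of these receptors, was at -0.32 ± 0.13, and Tlr5 at 0.34 ± 0.42. Nfkbia, the inhibitor of NF-κB, was at -0.48 ± 0.13 with all VEH-CD mice below the VEH-WT mice (unadjusted p = 0.00226, adjusted p = 0.168, limma). Il1a and Cd80 were at 0.67 ± 0.36 and 0.46 ± 0.30.

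Of the genes around Trem2 and Tyrobp, Card9 was at 0.40 ± 0.19, the phosphatase Ptpn6 at 0.38 ± 0.16 and Treml2 at -0.22 ± 0.32 between VEH-CD and VEH-WT on the log2 scale. Of genes known from disease-associated microglia, Clec7a was at 0.77 ± 0.40, Ccl6 at 0.48 ± 0.28 and Gpnmb at 0.45 ± 0.22. Of the phagocytosis genes, Cd36 was at 0.35 ± 0.32, Cybb at 0.27 ± 0.28 and Ncf1 at -0.27 ± 0.14. None of these passed the test.

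Border-associated macrophages also express C1q genes, Trem2, Tyrobp and Cd68. Of their 8 measured markers, none was called between VEH-CD and VEH-WT, and 2 were lower at an unadjusted p under 0.05 (6.73% of all genes). The log2 fold changes of these markers ran from -0.97 to 0.57. Their summed level, led by Stab1, was 0.636 to 0.879 of the VEH-WT mean in VEH-CD and 0.724 to 0.888 in VERCUR-CD, against 0.954 to 1.08 in VEH-WT and 0.868 to 1.18 in VERCUR-WT, where the treated genotypes overlapped. Stab1 was called between the genotypes over both treatments (log2 fold change -0.52 ± 0.08, adjusted p = 0.0117, limma). It was at 409.7 to 496 normalized counts in the 6 CD mice and at 562 to 770.3 in the 6 WT mice. In VEH-WT it was at 625 to 734, where the summed markers were at 991 to 1122. Stab1 thus made up most of that sum, and the 2 are not separate results. Markers of blood monocytes and neutrophils, led by S100a9, were at 0.294 to 0.722 in VEH-CD and 0.255 to 3.04 in VERCUR-CD, and those of red blood cells at 1.01 to 1.75 and 0.873 to 1.26. The part of these cells in the levels of Cd68 and the other members was not tested.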

How the data were processed

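Cortical RNA was sequenced from the 12 mice that the labels place in 4 groups of 3. Per the labels and the study's methods, the authors used STAR 2.5.3a with GRCm38. They deposited counts divided by 1 factor per mouse. The counting program, the annotation release and the normalization are not given in the sources used here. The deposited values carry decimal commas and are not raw counts, so count tests were not run on them. In every mouse, 100% of low values were whole multiples of 1 step (tolerance 0.1 of a step), from which reads were recovered. The other 2 deposited tables hold expression relative to VEH-WT for genes the authors selected, with some mice left out, and were not used.

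Normalized counts plus a pseudocount of 1 were log2-transformed, and limma 3.58.1 (R 4.3.3) estimated 4 group means with an intensity trend for the 17111 genes with a mean of at least 10. Fold changes are on that scale and understate those of low genes. P values were two-sided and adjusted over all genes by the Benjamini-Hochberg method, and the fit was checked on simulated data. A gene was called where the adjusted p fell under 0.05 and the level differed by more than 25%. Other steps used Python 3.11.15, pandas 2.3.3 and numpy 2.4.6. The labels do not tell how the mice of a group relate, so p values measure the spread between these mice.

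The members and lists were chosen with earlier results of these data known. Other genes were named by rule. From each pathway list these were those called and the 3 of largest change in VEH-CD against VEH-WT. From each marker list it was the most abundant, and for each member the 3 genes of highest r outside the members. Alternatives were other pseudocounts, filters, scalings and weights, the groups compared only, no trend, a replicate block, removal of single values and leaving out each mouse.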

Additional observations from a re-analysis of the deposited data

How the results depend on the processing

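No member was called under most alternatives in any of the 8 comparisons. The exceptions were 2 members in VERCUR-CD against VEH-WT with sample quality weights (Cd68, adjusted p = 0.00369, and Tlr2, 0.0183, limma) and 1, Cd68, over both treatments between the genotypes (adjusted p = 0.0169, limma). Removal of single values in groups with a CV of 20% or more also called Cd68 in these comparisons, 1 member each (adjusted p = 0.0489 and 0.0432, limma). This removal took no value of a member but lowers the spread of other genes by construction. The weights came from an estimation that did not converge and gave VERCUR-CD replicate 3 a weight of 24.4. With these weights Itgam had an adjusted p of 0.0133 against VEH-WT and 0.0331 against VEH-CD (limma), under the fold threshold. Weights estimated gene by gene and voom on the recovered reads, both added after the data were seen, called no member, with a smallest adjusted p of 0.0541 over the comparisons. Leaving out each of the 12 mice called 0 members in every comparison, and the adjusted p of the best member in VERCUR-CD against VEH-WT ranged from 0.255 to 0.904. The replicate number as a block called 0 members, so the block changed no call of a member. Deviations of same-numbered mice from their group means had an r of -0.35 to 0.267, with 4 of 18 pairs over 0.1. The labels do not tell how same-numbered mice relate, and such correlations cannot exclude a pairing. Of 1773 values of single genes under the alternatives, 1682 kept their direction and their side of the threshold, 7 passed the adjusted threshold newly, 5 of them with the fold change of a call, and 84 changed sign without a call in either fit, none by a value over 0.126 on the log2 scale. Over all genes, the calls in VEH-CD against VEH-WT went from 44 to 354 with the weights, 349 with those by gene and 972 with removal of values, in VERCUR-CD against VEH-WT from 34 to 1382, 140 and 840, and between the genotypes over both treatments from 55 to 456, 182 and 837, while leaving out 1 mouse gave 24 to 71, 24 to 39 and 38 to 63. In VERCUR-CD against VEH-CD the 0 calls became 1015, 6 and 241. The edgeR and DESeq2 fits that were planned were not run, and voom on the recovered reads was the closest fit to them. With 3 mice a group, a difference whose interval includes no change cannot be told from the spread between mice.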
